A study of Homo sapiens with 3 samples.

Results

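The genes described here are 10 members of the interleukin 6 (IL6) family pathway: the cytokine genes IL6, IL11, LIF and CLCF1, the receptor genes IL6R, IL6ST, LIFR, OSMR and CNTFR, and the transcription factor gene STAT3. They were taken as named genes out of 19974 protein-coding genes, and a BRG1 peak was counted for a gene when its midpoint lay in the gene body, or within 100 kb of it with no other protein-coding gene nearer. The cells were wild-type 12Z, a human cell line of epithelial cells from endometriosis, and the labels name no treatment. Chromatin bound by BRG1, the ATPase of the SWI/SNF remodelling complex encoded by SMARCA4, was sequenced in 2 ChIP libraries made with one antibody, beside 1 library of input chromatin. The labels do not tie the replicates to separate cultures, so where they match, the match may be technical.

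Cytokines of this family signal through receptor complexes that share the subunit gp130, the product of IL6ST. IL6 and IL11 bind their own alpha receptors and then gp130, whereas LIF acts through LIFR with gp130, and oncostatin M through OSMR or LIFR with gp130. CNTFR is the alpha receptor of ciliary neurotrophic factor and of the factor encoded by CLCF1. The complexes activate JAK kinases, which phosphorylate STAT3. In the endometrium, LIF is known for its part in embryo implantation, and IL6 is a well known inflammatory cytokine of endometriosis lesions.

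On chromosomes 1 to 22 and X, replicate 1 held 17323 peaks, replicate 2 held 10082, and the overlap list of the series held 6293, which are called shared peaks here. The authors give each peak a fold (signal divided by background) and a −log10 q-value. Median folds were low, from 3.33 to 3.71 over the 3 lists. The lists hold no read counts, so the depth is unknown and no value below has an interval. They hold no RNA either, so the cell type could not be checked by expression. As a description, 3 of 7 epithelial marker genes (KRT7, KRT8 and KRT18), 0 of 6 immune cell markers, 1 of 3 endothelial markers (VWF) and 0 of 2 hepatocyte markers had a shared peak, beside 9.67% of all genes. The epithelial markers KRT19, EPCAM, CDH1 and MUC1 had none. The highest −log10 q at VWF was 5.55, against 4.92 or less at the keratins. In replicate 1 the counts were 5, 1, 3 and 0, beside 20.2% of all genes. These peaks are no measure of cell type.

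BRG1 peaks were found at 7 of the 10 family genes and were most numerous at the receptor gene OSMR. IL6, LIF, CLCF1, IL6ST, LIFR, OSMR and STAT3 each had at least 1 shared peak, and each had a peak in both replicates. The second count largely follows from the first, since every shared peak of these genes overlapped a peak of each replicate. IL11, IL6R and CNTFR had none in any of the 3 lists. Over all protein-coding genes, 9.67% had a shared peak, 20.2% a replicate 1 peak, 11.5% a replicate 2 peak and 10.5% a peak of both. The sequence in which a peak counts for a gene, its domain, had a median of 87.0 kb in the family. Over all genes it was 56.5 kb, and the shares were not matched for this. The 7 genes carried 12 shared peaks, 5 of them at OSMR and 2 at LIFR, with 1 at each of the others, where 3.27% of all genes had 2 or more. Of the 12, 6 had their midpoint in the gene body, beside 56.9% of all shared peaks with a gene within reach. Within 3 kb of an end of the family gene itself lay 5. This is a narrower measure than the 13.3% of those shared peaks near an end of any protein-coding gene. Requiring that a shared peak and its replicate peaks cover 50% of each other left 2 of the 10 genes, LIFR and OSMR, against 3.10% of all genes. Requiring a −log10 q of 5 or more in each replicate left 0, against 0.125% of all genes.

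**Figure D1:**
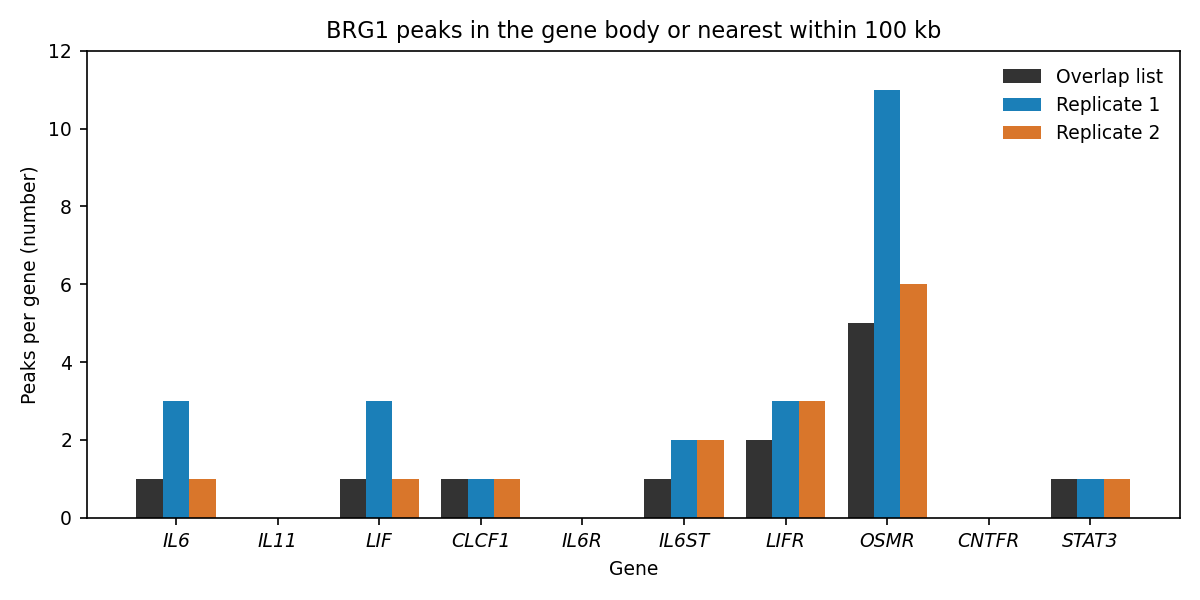
Number of BRG1 peaks (vertical axis) counted for each of the 10 genes (horizontal axis), with 1 bar for the overlap list, 1 for replicate 1 and 1 for replicate 2. OSMR has 5, 11 and 6 peaks, and IL11, IL6R and CNTFR have no bar.

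The same 7 genes came up in each library, but replicate 1 listed more peaks at them. Replicate 1 had 24 peaks at the 10 genes, of which 12 overlapped a replicate 2 peak by 1 bp or more, beside 36.6% of all replicate 1 peaks. Replicate 2 had 15, of which 12 were found in replicate 1, beside 63.9% of all replicate 2 peaks. None of these replicate peaks reached a −log10 q of 5. The highest values were 3.67 in replicate 1, at LIFR, and 4.28 in replicate 2, at OSMR. In the overlap list, where 21.5% of all peaks had a −log10 q of 5 or more, 3 of the 12 did, 2 at OSMR and 1 at IL6. The 12 folds ran from 2.88 to 4.14 with a median of 3.47, near the 3.33 of the whole list.

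OSMR, which encodes the oncostatin M receptor subunit, had more peaks than any other gene of the family. Of all genes, 0.411% (82 of 19974) had 5 or more shared peaks. OSMR lies on chromosome 5 on the plus strand, and 3 of its shared peaks lay upstream of its start and inside OSMR-DT, a long noncoding RNA gene that runs divergently from it. When noncoding genes could also be the nearest gene, OSMR kept 2 shared peaks.

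The shared peak of highest −log10 q in the family lay 80.5 kb upstream of OSMR, at chr5:38764654-38766395. Its fold was 4.14 in the overlap list, 4.15 in replicate 1 and 4.79 in replicate 2. By −log10 q it stood at percentile 88.4, 86.4 and 92.6 of these lists, well above the middle of each. The next upstream peak, 38.4 kb from the gene at chr5:38806680-38808639, had folds of 3.93, 4.001 and 4.26 and stood at percentile 81.7, 81.4 and 81.6. Both of these peaks thus ranked high in both libraries. The peak farthest upstream, 87.9 kb away at chr5:38757819-38758331, ranked low by −log10 q in all 3 lists, at percentile 3.99, 12.8 and 20.0. It was also the family's shared peak nearest to the limit of 100 kb, and the next shared peak beyond that limit lay 238.2 kb from OSMR, in the LIFR gene.

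At the OSMR start itself the libraries differed in detail. A broad shared peak of 3779 bp at chr5:38844538-38848316 covered the start, with a fold of 2.88 at percentile 6.25 by −log10 q. Beneath it, replicate 1 had 2 separate peaks, at chr5:38845703-38845885 (fold 2.90) and chr5:38847178-38848292 (fold 3.39), and the first of these lay over the promoter. Replicate 2 had 1, at chr5:38847882-38848291 (fold 3.71), which began 1870 bp past the start. Further into the gene, a shared peak at chr5:38871043-38872209 lay 25.03 kb past the start, with folds of 3.54, 4.22 and 3.70. Between 3.26 and 11.4 kb past the start, replicate 1 had 3 peaks and replicate 2 had 1 that were not found in the other library. Upstream, replicate 1 alone had peaks at chr5:38783288-38783710 (fold 3.37) and chr5:38824814-38825174 (fold 3.57).

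The OSMR promoter is shown because it was the 1 promoter window, of 10 windows for 8 members, that lay under a shared peak. LIF and CLCF1 had no window, so a peak over their promoters could not be counted. The CLCF1 shared peak spans the upper-coordinate end of that gene, and whether this end is its start was not read. Over all 34961 windows on chromosomes 1 to 22 and X in the RefSeq table, 0.787% lay under a shared peak. Of the 10 windows, 1 (OSMR) lay under a replicate 1 peak and 0 under a replicate 2 peak, beside 1.44% and 0.681% of all windows. That replicate 1 peak stood at percentile 15.5 by −log10 q and was not found in replicate 2. The OSMR window runs from 250 bases before to 50 after the start, on GRCh38.p14 at chr5:38845762-38846061, plus strand. The IL6 window, at chr7:22726950-22727249 on the plus strand, is printed beside it because the IL6 peak lies at the other end of that gene. It was chosen after the peaks were seen. Both are written 5′ to 3′, and capitals mark matches, on either strand, to TGANTCA (AP-1), TTCNNNGAA (STAT), GGAATG (TEAD) or an NF-kB motif, which reads GGGATTTTCC in the IL6 window and may hold any base at the fifth position.
OSMR: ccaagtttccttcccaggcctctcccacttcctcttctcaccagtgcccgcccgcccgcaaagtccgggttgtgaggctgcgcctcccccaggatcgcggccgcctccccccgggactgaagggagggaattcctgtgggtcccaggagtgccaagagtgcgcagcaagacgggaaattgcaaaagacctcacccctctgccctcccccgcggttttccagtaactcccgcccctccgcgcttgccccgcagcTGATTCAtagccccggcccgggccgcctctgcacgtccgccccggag
IL6: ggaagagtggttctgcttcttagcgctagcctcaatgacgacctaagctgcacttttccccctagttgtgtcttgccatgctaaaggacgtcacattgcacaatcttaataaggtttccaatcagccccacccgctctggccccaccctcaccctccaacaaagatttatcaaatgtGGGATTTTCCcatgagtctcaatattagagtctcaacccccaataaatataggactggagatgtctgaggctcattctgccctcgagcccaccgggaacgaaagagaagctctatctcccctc

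The OSMR window held 1 match to TGANTCA, which 7.71% of the 35116 windows of the whole table hold, and the IL6 window held 1 match to the NF-kB motif, which 0.558% hold. Neither held TTCNNNGAA (7.66% of windows) or GGAATG (14.0%). G and C made up 67.7% of the OSMR window and 49.3% of the IL6 window. A match is a stretch of letters and not a measured site.

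LIFR, the receptor subunit for LIF, is the next protein-coding gene to OSMR and lies on the minus strand, so the pair is transcribed away from each other and the upstream OSMR peaks lie between them. It had 2 shared peaks, both inside the gene body. The first, at chr5:38549873-38550789, lay 5.86 kb past the nearest start in the RefSeq table, with folds of 3.85 in the overlap list, 4.46 in replicate 1 and 4.17 in replicate 2. By −log10 q it stood at percentile 67.0, 91.1 and 67.5, above the middle of each list. The second, at chr5:38607408-38608175, lay 228 bp inside the upstream end of the annotated gene, where the gene overlaps its antisense gene LIFR-AS1. Its folds were 3.24, 3.56 and 3.56, at fold percentiles 41.2, 52.8 and 37.5. By −log10 q it ranked lower, at percentile 15.1, 38.6 and 6.55. Replicate 2 alone had a peak 332 bp past a LIFR start (fold 3.61, chr5:38555916-38556314), and replicate 1 alone had one at chr5:38598966-38599114 (fold 3.598).

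**Figure D2:**
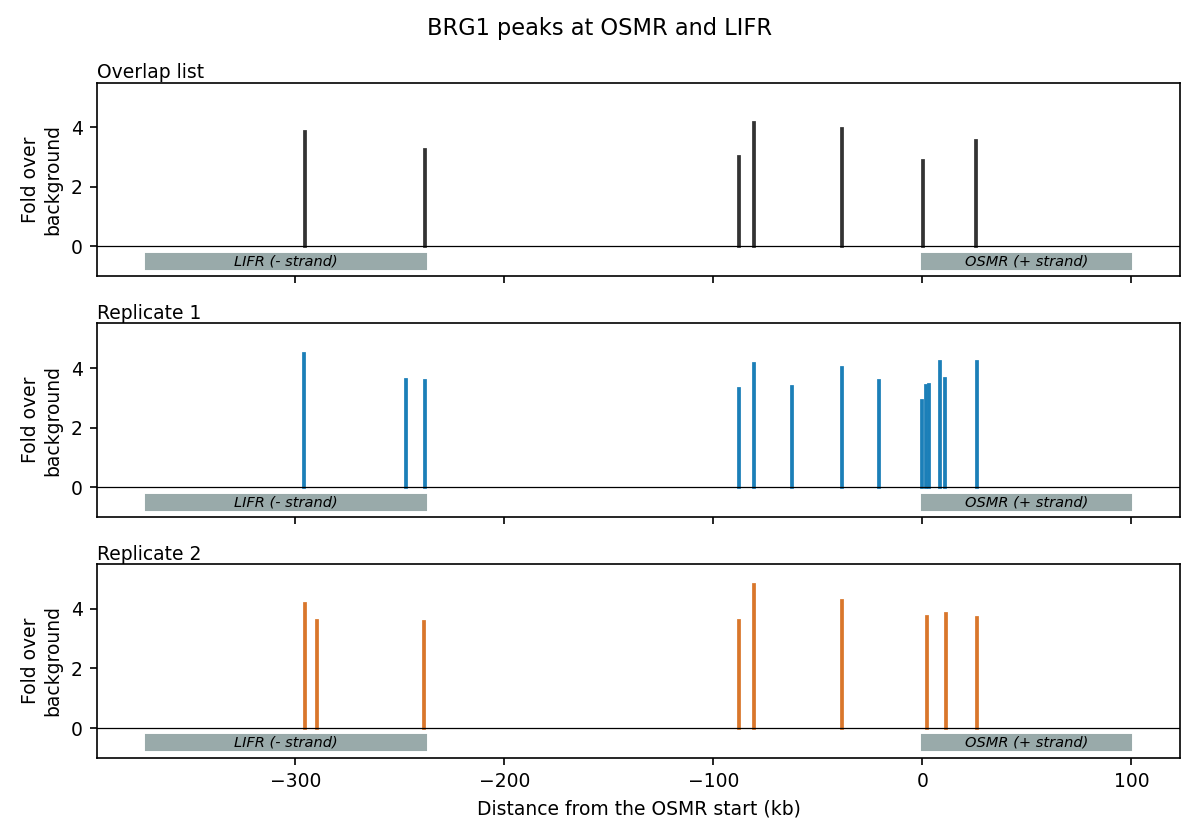
Fold over background (vertical axis, linear, from 0) of every peak of LIFR and OSMR, against its distance in kb from the OSMR start (horizontal axis), with 1 panel for the overlap list and 1 for each replicate. Grey boxes are the gene bodies, and the peaks 80.5 and 38.4 kb upstream of OSMR stand in all 3 panels.

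IL6ST, which encodes the shared subunit gp130, is also on chromosome 5, on the minus strand. Its 1 shared peak lay outside the gene, 17.3 kb upstream at chr5:56011687-56012901, with folds of 3.51 in the overlap list, 3.66 in replicate 1 and 4.07 in replicate 2. It stood near the middle of the lists, at percentile 41.0, 51.0 and 61.5 by −log10 q. Nearer to the start the libraries did not overlap. Replicate 1 had a peak 645 bp past it at chr5:55994104-55994318 (fold 3.28), and replicate 2 had one 1622 bp past it at chr5:55992984-55993341 (fold 3.56).

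The receptor peaks lie on a chromosome with many peaks. The 3 family genes on chromosome 5 held 8 of the 12 shared peaks, and on that chromosome 16.7% of genes had a shared peak, against 9.34% on all others. Within 10 Mb of OSMR the share was 21.6% (16 of 74 genes). The chromosome 5 share includes the 3 family genes themselves. The region within 10 Mb includes OSMR and LIFR with their 7 shared peaks, also in its peaks per Mb. Of the 7 family genes on other chromosomes, 4 had a shared peak. Per Mb of sequence assigned to genes, shared peaks numbered 3.09 within 10 Mb of OSMR and 1.53 over all genes, and OSMR had 25.1 per Mb. CLCF1 (41.3 per Mb) and LIF (32.4 per Mb) had higher values, each from 1 peak in a short domain, so this density does not set OSMR apart. The part of the local density in the count at OSMR was not tested. OSMR also has a long domain of 199.6 kb (its body plus the flanks nearest to it), which is longer than or equal to that of 86.1% of genes.

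IL6, the founding cytokine of the family, had a shared peak inside the gene and near its downstream end. The peak at chr7:22731044-22731600 began 3.84 kb past the start and ended 398 bp before the end of the gene. Its fold was 4.01 in the overlap list, 4.16 in replicate 1 and 4.92 in replicate 2, and by −log10 q it stood at percentile 79.3, 82.6 and 91.7. By fold alone the percentiles were 92.4, 90.1 and 98.1, beside 94.7, 90.0 and 97.1 for the OSMR peak 80.5 kb upstream. No list had a peak over the IL6 promoter window printed above. Replicate 1 had 2 further peaks, 79.6 and 75.4 kb upstream, at chr7:22647550-22647673 (fold 4.17) and chr7:22651751-22651880 (fold 3.56), and replicate 2 had neither.

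The LIF peak lay just outside the gene, on its lower-coordinate side, 1484 bp from the gene at chr22:30237629-30238968. Its folds were 3.44 in the overlap list, 3.62 in replicate 1 and 4.10 in replicate 2, and by −log10 q it stood at percentile 26.3, 37.3 and 59.8. The noncoding gene LIF-AS1 was nearer to it than LIF. Replicate 1 alone had peaks on both sides of LIF, at chr22:30235813-30236377 (fold 4.16) and chr22:30250794-30251178 (fold 3.50).

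CLCF1, which encodes cardiotrophin-like cytokine factor 1, had a shared peak across its upper-coordinate end. It spanned 2018 bp at chr11:67373645-67375662, with its midpoint 476.5 bp outside the gene and inside the noncoding gene LOC100130987. Its folds were 3.18, 3.81 and 3.63, and by −log10 q it stood at percentile 32.7, 77.2 and 35.2. By −log10 q it was thus above the middle of replicate 1 and below the middle of both other lists. The CLCF1 peak, like those of IL6, LIF, LIFR and OSMR, lay within 3 kb of a gene end. These were 5 of the 10 genes, where 2.24% of all genes had a shared peak within 3 kb of an end. The count fell to 0 when 50% of both peaks had to overlap, and to 0 at a −log10 q of 5 or more in each replicate. No share of all genes near a gene end is given at these settings, so these counts have no background beside them. With IL6ST, 6 of the 10 had a replicate 1 peak there (6.85% of all genes) and 6 a replicate 2 peak (3.0%).

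STAT3, the transcription factor downstream of the receptors, had the weakest shared peak of the family by −log10 q. It lay in the gene body at chr17:42325074-42326014, 62.4 kb past the start. Its folds were 2.98 in the overlap list, 3.23 in replicate 1 and 3.66 in replicate 2, and by −log10 q it stood at percentile 2.96, 12.6 and 24.2. The STAT3 peak was found in both libraries but ranked at percentile 24.2 or lower by −log10 q in each list.

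**Figure D3:**
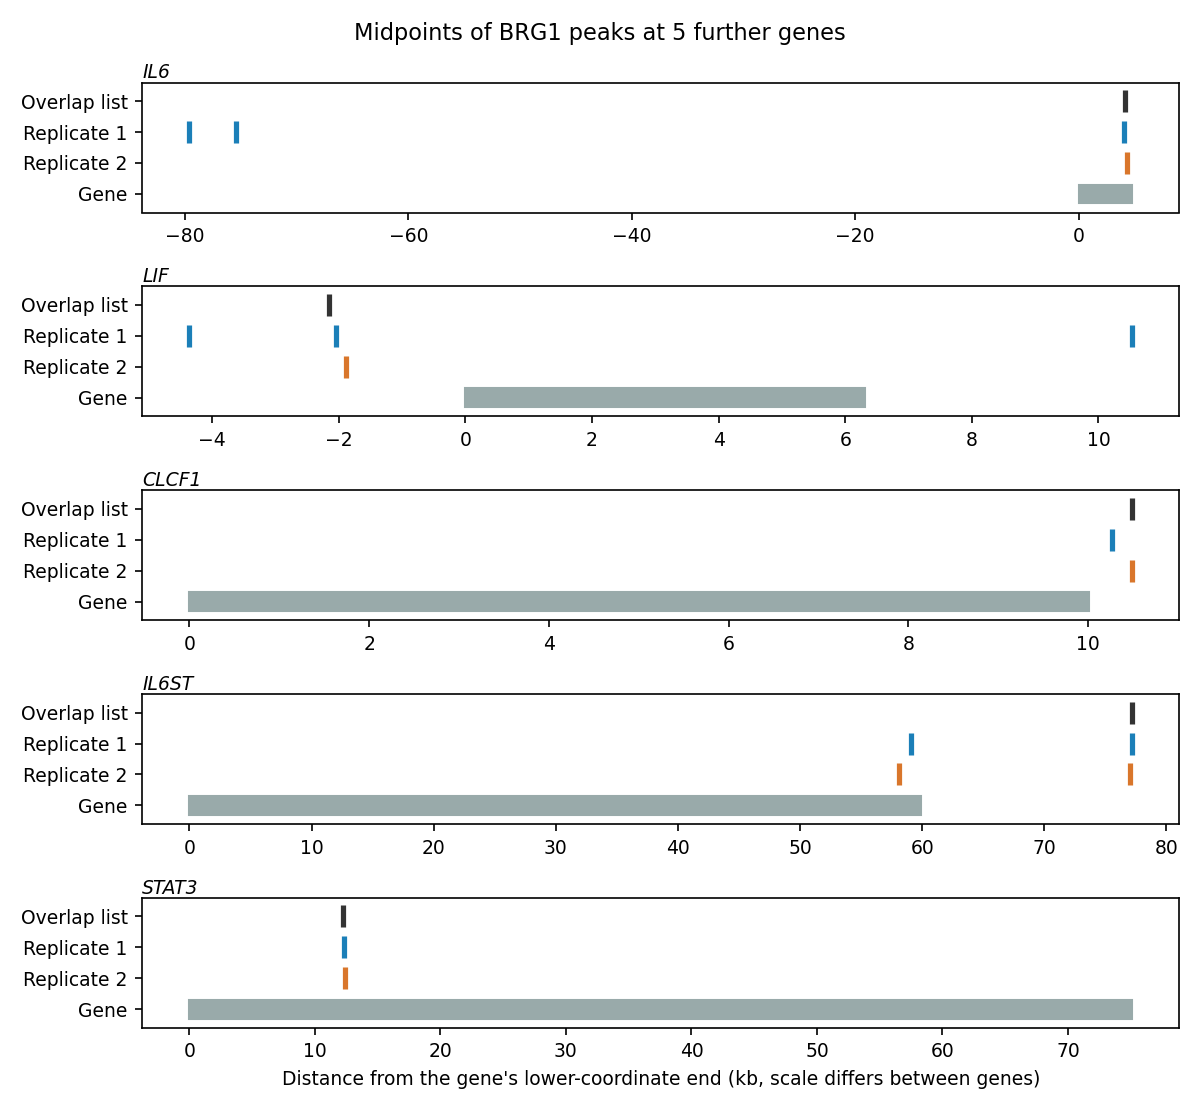
Midpoints of the peaks at IL6, LIF, CLCF1, IL6ST and STAT3 against the distance in kb from the lower-coordinate end of each gene (horizontal axis, a scale for each gene), in rows for the overlap list, replicate 1, replicate 2 and the gene body (grey box). The 3 lists align at 1 place per gene, and the peaks 79.6 and 75.4 kb from IL6 are in replicate 1 only.

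**Figure D4:**
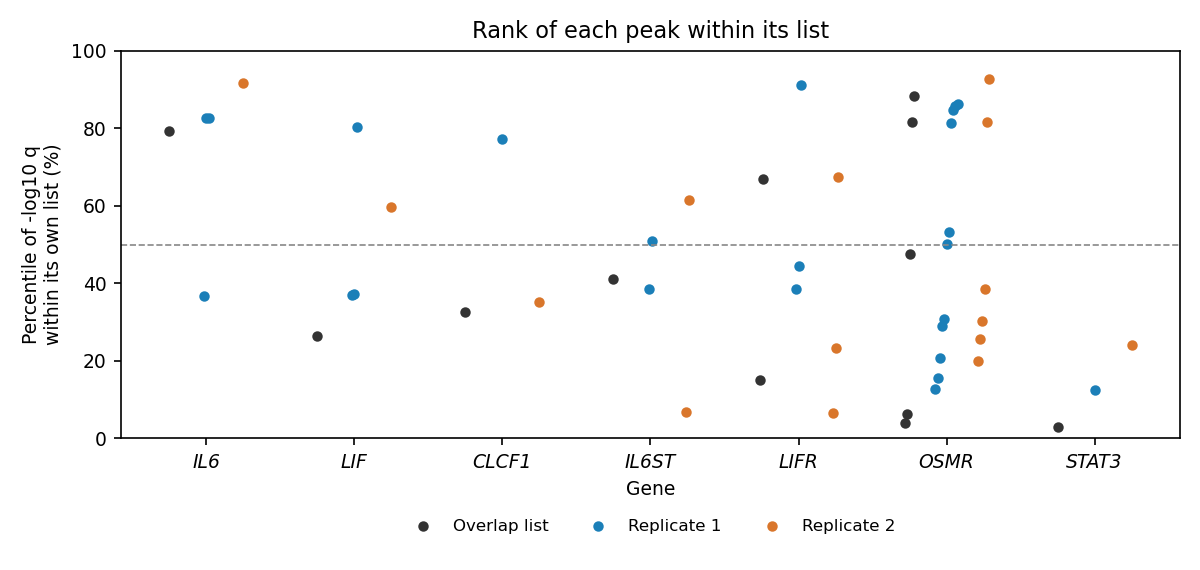
Percentile of −log10 q within its own list (vertical axis, %) for every peak of the 7 genes with peaks (horizontal axis), coloured by list, with a dashed line at the middle of a list. The STAT3 peak is at 24.2 or lower in all 3 lists, and OSMR peaks run from 3.99 to 92.6.

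The genes without a peak differed in how much sequence they could hold one in. IL11, the cytokine gene, lies among close neighbours and had a domain of 9.82 kb, against a median of 56.5 kb over all genes. Its nearest shared peak was 157.2 kb away and belonged to PTPRH. IL6R, which encodes the IL6 alpha receptor, had a domain of 91.2 kb, and its nearest shared peak was 838.9 kb away. CNTFR had a domain of 63.5 kb and its nearest shared peak was 1137 kb away. Both receptor genes therefore had domains longer than the median gene and no peak. A missing peak says that none was called in these lists, and not that BRG1 is absent.

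Other genes of the pathway had shared peaks at a share between that of the 10 family genes and that of all genes, and these differences were not tested. The list held further ligands, receptors, JAK kinases, STATs, inhibitors, sheddases and target genes, and 14 of 48 had a shared peak (29.2%, beside 9.67% of all genes). When 50% of both peaks had to overlap, 1 of 48 had one, beside 3.10% of all genes, so the higher share was not kept. By class these were 1 of 7 ligands, 1 of 3 receptors, 1 of 3 kinases, 2 of 6 other STATs, 3 of 9 inhibitors, 1 of 2 sheddases and 5 of 18 target genes. The strongest by −log10 q lay in JAK1, a kinase of the receptor complexes (chr1:64917333-64917746, fold 4.31). The apoptosis inhibitor gene BCL2L1 followed (chr20:31712629-31713891, fold 3.90).

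SOCS3, the feedback inhibitor of gp130 signalling, had 3 shared peaks, the strongest of them 41.1 kb from the gene (chr17:78315414-78315998, fold 3.50). PIM1, a kinase gene and known STAT3 target, had 4, of which the strongest lay 25.98 kb away (fold 3.65). CEBPB, a transcription factor gene, had 2 (highest-ranked fold 3.34), as had BCL3 (3.56) and STAT4 (3.81). CNTF, the ligand of CNTFR, had 1 (3.77).

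Other cytokine receptor genes, of the interferon, interleukin and hormone types, had shared peaks at 4 of 32 (12.5%), which is near the 9.67% of all genes. With replicate 1 alone it was 9 of 32, beside 20.2% of all genes. Their median domain of 86.6 kb was close to the 87.0 kb of the family. The 4 genes were IFNGR2, IL20RB, IL7R and PRLR, and IL7R and PRLR also lie on chromosome 5. Receptors of this list without a shared peak were not compared by chromosome. The difference from the family was not tested, since there is 1 condition and the family was chosen with earlier results known. By the numbers of peaks in the 3 lists (5, 11 and 6), 2 genes had the same pattern as OSMR, namely EPS8 and UACA.

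**Figure D5:**
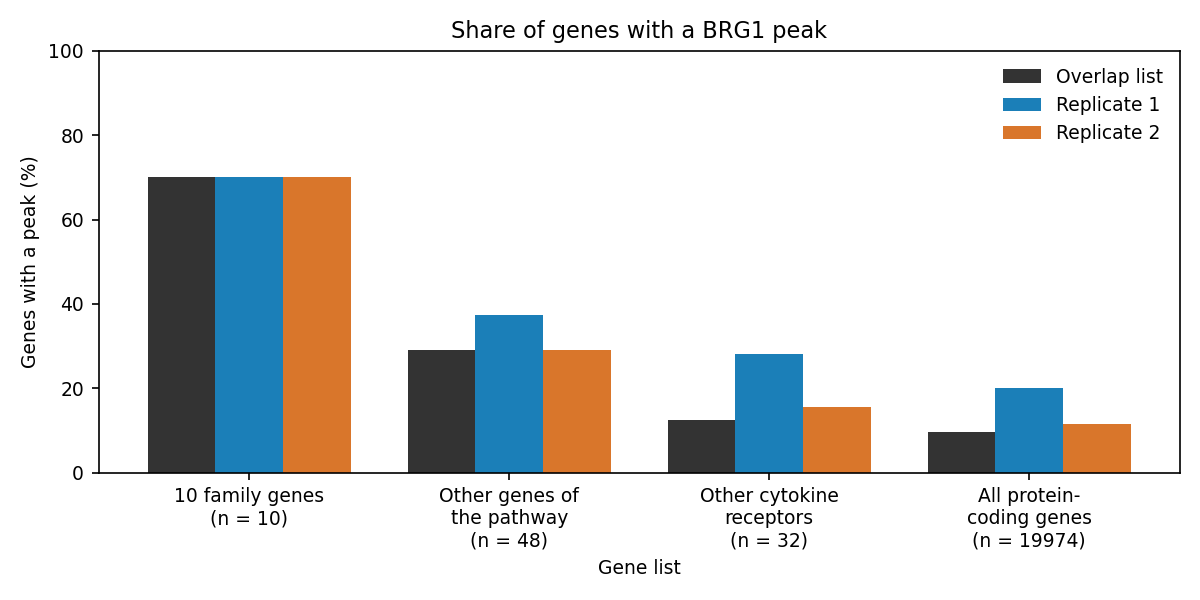
Share of genes with a BRG1 peak (vertical axis, %) in 4 gene lists (horizontal axis, with the number of genes), with 1 bar each for the overlap list, replicate 1 and replicate 2. The bars stand at 70.0% for the 10 family genes in all 3 lists, and at 29.2, 12.5 and 9.67% in the overlap list for the others.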

How the data were processed

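Peaks of BRG1 ChIP-seq in 12Z cells were analysed from 3 deposited lists, 1 per replicate and 1 overlap list. The submitters' processing notes name MACS2, bedtools, Bowtie2, cutadapt, Trim Galore, SAMtools and Picard, with the build GRCh38.p12. Versions, settings and the peak filter were not stated in the sources used here. For each peak the deposited lists hold a fold (ratio of signal to background), a −log10 p-value, a −log10 q-value and a score. The score was not used. The overlap list holds its own peak calls, and it is not stated whether these pooled the reads. No list of the input was used here.

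Peaks on chromosomes 1 to 22 and X were assigned with Python 3.11.15, numpy 2.4.6 and pandas 2.3.3 to genes of RefSeq, GRCh38.p14, whose chromosome coordinates a patch release leaves unchanged. Figures used matplotlib 3.10.9. A peak in several gene bodies counts for each. Folds and percentiles are used within their own list. Promoter windows from RefSeq, GRCh38.p14, matched 8 of the 10 genes. LIF and CLCF1 were not matched, and their strand is not used. Exons were not used. The assignment was tested on simulated data. No test was made, as there is 1 condition. Counts stand beside the share over all genes.

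The members and lists were chosen with earlier results of these data known. The genes named are the 10 members, the 8 pathway genes with a shared peak of highest −log10 q, all other cytokine receptors with one, the genes with the same peak numbers as the member with the most, and neighbouring genes. Other genes named are markers and overlapping noncoding genes. Alternatives were the overlap required, a −log10 q of 5, each replicate alone, reaches of 50 kb and 1 Mb, gene-end windows of 1 and 10 kb, any overlap with the domain, and noncoding genes as nearest genes.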

Additional observations from a re-analysis of the deposited data

How the results depend on the processing

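The 7 genes of the family with a shared peak kept one with reaches of 50 kb and 1 Mb, with any overlap, and with replicate 1 peaks that overlap a replicate 2 peak, a setting chosen after seeing the data. At these settings 8.93% to 10.8% of all genes had one. The family count was 7 to 7 without replicate 1 or without replicate 2, and the count at gene ends was 6 to 6 against 5. The pathway count of 14 became 14 to 18, and the count of 4 other cytokine receptors became 5 to 9. Of all genes, 11.5% had a peak without replicate 1 and 20.2% without replicate 2. Within 3 kb of a gene end these shares were 3.0% and 6.85%. With gene-end windows of 1 and 10 kb, the family count at gene ends was 4 and 5. No share of all genes is given for these windows. Requiring 50% of both peaks left 2 family genes, 0 of them at gene ends, 1 pathway gene and 1 other receptor. A −log10 q of 5 or more in each replicate left 0 in each of these 4 counts, and 0 family genes with a peak of either replicate. Of all genes, 3.10% kept a shared peak in their domain when 50% of both peaks had to overlap, and 0.125% at that q. These shares are not limited to gene ends, so the gene-end counts have no background beside them. With noncoding genes as nearest genes, 4 family genes remained, beside 7.21% of all genes. LIF, CLCF1 and IL6ST gave their peaks to LIF-AS1, LOC100130987 and IL6ST-DT. The settings on overlap and on q use fewer peaks by construction. A reach of 1 Mb can only add family genes, and the 12 shared peaks all overlap a peak of each replicate. The family counts at that reach and in each replicate could thus hardly fall. For single genes, 24 of 90 recounts moved by more than 1.5 times, of which 19 were lower and 5 higher. No paired analysis was possible because the labels give 1 group with replicates. Depth is unknown, so a missing peak cannot be told apart from too few reads.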
